A study of Bos taurus with 8 samples.

Results

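The genes described here encode proteins of the mitochondrial ribosome and of the machinery that brings proteins into mitochondria. They were taken as every non-control probe whose RefSeq gene symbol begins with MRPL, MRPS, TIMM, or TOMM. This symbol rule used no measured values, but the set itself was chosen with earlier results of these data known. This gave 70 probes of 69 genes, out of 8297 named probes of 7788 genes and 21475 non-control probes in all. The set held 38 MRPL genes (39 probes, since MRPL39 had a pair), 15 MRPS genes, 9 TIMM genes, and 7 TOMM genes. The reference table lists 103 genes with such symbols, and the other 34 had no matched probe and were not analysed here.

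Mitochondria carry a ribosome of their own, which makes the few respiratory chain proteins encoded in mitochondrial DNA, while all of its protein subunits are encoded in the nucleus. MRPL symbols name proteins of its large subunit, which joins amino acids, and MRPS symbols name proteins of its small subunit, which reads the messenger RNA. These subunits, like nearly all mitochondrial proteins, are made in the cytosol and pass through the TOM complex of the outer membrane and then the TIM complexes of the inner membrane. Muscle fibers are rich in mitochondria, and myoblasts build up their mitochondria as they differentiate. A symbol does not always match a role. MRPS30 and MRPS18A are named after the small subunit but sit in the large one, TIMMDC1 assists the assembly of respiratory complex I, and TOMM34 is a co-chaperone of the cytosol.

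Transcripts were measured in primary muscle cell cultures from semitendinosus muscle of 15-month-old Limousin (LIM), Hereford (HER), and Holstein-Friesian (HF) bulls, LIM and HER being beef breeds and HF the dairy reference. RNA of 1 beef culture and 1 HF culture was hybridised together on each of 8 dual-channel arrays. On 4 arrays LIM cells carried Cy5 and HF cells Cy3, and on the other 4 arrays HER cells carried Cy3 and HF cells Cy5. All cultures were untreated, grown in the same serum medium, and frozen while proliferating at 80% confluence. The methods describe 4 bulls of each breed, so the same HF bulls served both comparisons, and which HF culture lay on which array is not given in the sources used here. Each comparison lay on its own slide with its own dye orientation, so that breed cannot be told apart from slide or dye there. The cells were enriched for myoblasts by repeated preplating and were not a pure population.

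Every value below is a log2 ratio of beef breed over HF, so that 0 means equal signal, 1 a doubling, and a negative value less signal in the beef culture. A probe is called higher or lower where its Benjamini-Hochberg adjusted p, from a limma fit over all 17622 tested probes, was at most 0.05. All 70 probes were tested, and all 70 were well above background in all 16 channels, as were 79.6% of the tested probes. A ratio between mixed cultures does not separate fewer cells of a type from less RNA per cell.

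Markers of the labeled cell type were present. All 7 measured probes of a list of satellite cell and myoblast genes, MYF5, MYOD1, and DES among them, were well above background in all 16 channels, and 5 of the 7 were called higher in each beef breed. All 7 tested probes of differentiating muscle genes were called higher in both, with medians of 3.62 for LIM and 3.03 for HER. Other cell types were present too. Of 15 fibroblast probes, 6 were called higher and 3 lower in LIM, and 5 higher and 4 lower in HER. Beside these marker counts, 16.6% of all tested probes were called higher and 19.4% lower in LIM, and 10.7% and 14.7% in HER. The 4 endothelial probes had array medians from -2.85 to 3.59, the 4 probes of smooth muscle cells and pericytes had medians of 0.74 for LIM and 1.18 for HER, the 5 adipocyte probes 0.96 and -0.39, and the 2 probes of macrophages and leukocytes 0.38 and 0.44. The part of these cells in the results below was not tested.

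As a set, most of the mitochondrial ribosome and import probes read less signal in beef than in HF cultures, by small amounts. Means below 0 were found for 28 of 39 MRPL and 14 of 15 MRPS probes in LIM, and for 27 and 12 in HER. Of the import probes, 5 of 9 TIMM and 3 of 7 TOMM probes were below 0 in LIM, and 6 and 3 in HER. The medians in LIM and HER were -0.03 and -0.17 for TIMM and 0.00 and 0.05 for TOMM. The median log2 ratio of the 70 probes was -0.25 for LIM over HF and -0.15 for HER over HF, against -0.01 and -0.06 for all tested probes. In the LIM comparison 50 of 70 probes (71.4%) lay below 0, against 50.7% of all tested probes, and in the HER comparison 48 of 70 (68.6%) against 54.9%. The ratio was below 0 on all 4 LIM arrays for 20 probes (28.6%, against 25.3% of tested probes) and above 0 on all 4 for 6 (8.57%, against 22.5%). On all 4 HER arrays, 22 probes (31.4%, against 5283 of 17620 tested probes with 4 values) were below 0 and 9 (12.9%, against 21.5%) above it. The shares on the low side were near those of the whole table on these counts, and the shares on the high side were below them. No test was made of the set as such.

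In LIM, 15 of the 70 probes (21.4%) were called lower than in HF and 4 (5.71%) higher, where 19.4% of all tested probes were called lower and 16.6% higher. In HER, 8 probes (11.4%) were called lower and 4 (5.71%) higher, where 14.7% of all tested probes were called lower and 10.7% higher. In the mean of both breeds, in which a dye effect shared by both comparisons cancels, 20 probes (28.6%) were called lower and 7 (10.0%) higher, against 26.2% and 21.4% of all tested probes. In this fit the shares called lower were close to those of the whole array, and the shares called higher were below them. The first of these depended on the arrays used, as given below. Centring each array on its tested probes left 4 HER probes lower and 4 higher (5.71% each, against 11.4% and 12.3% of all tested probes). In the mean it left 17 lower and 10 higher (24.3% and 14.3%, against 23.8% and 23.4%). Scaling the arrays to one spread gave 15 HER probes lower and 4 higher (21.4% and 5.71%, against 20.6% and 14.5%). Loess without background correction gave 19 lower and 11 higher in the mean (27.1% and 15.7%, against 22.2% and 23.8%).

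**Figure D1:**
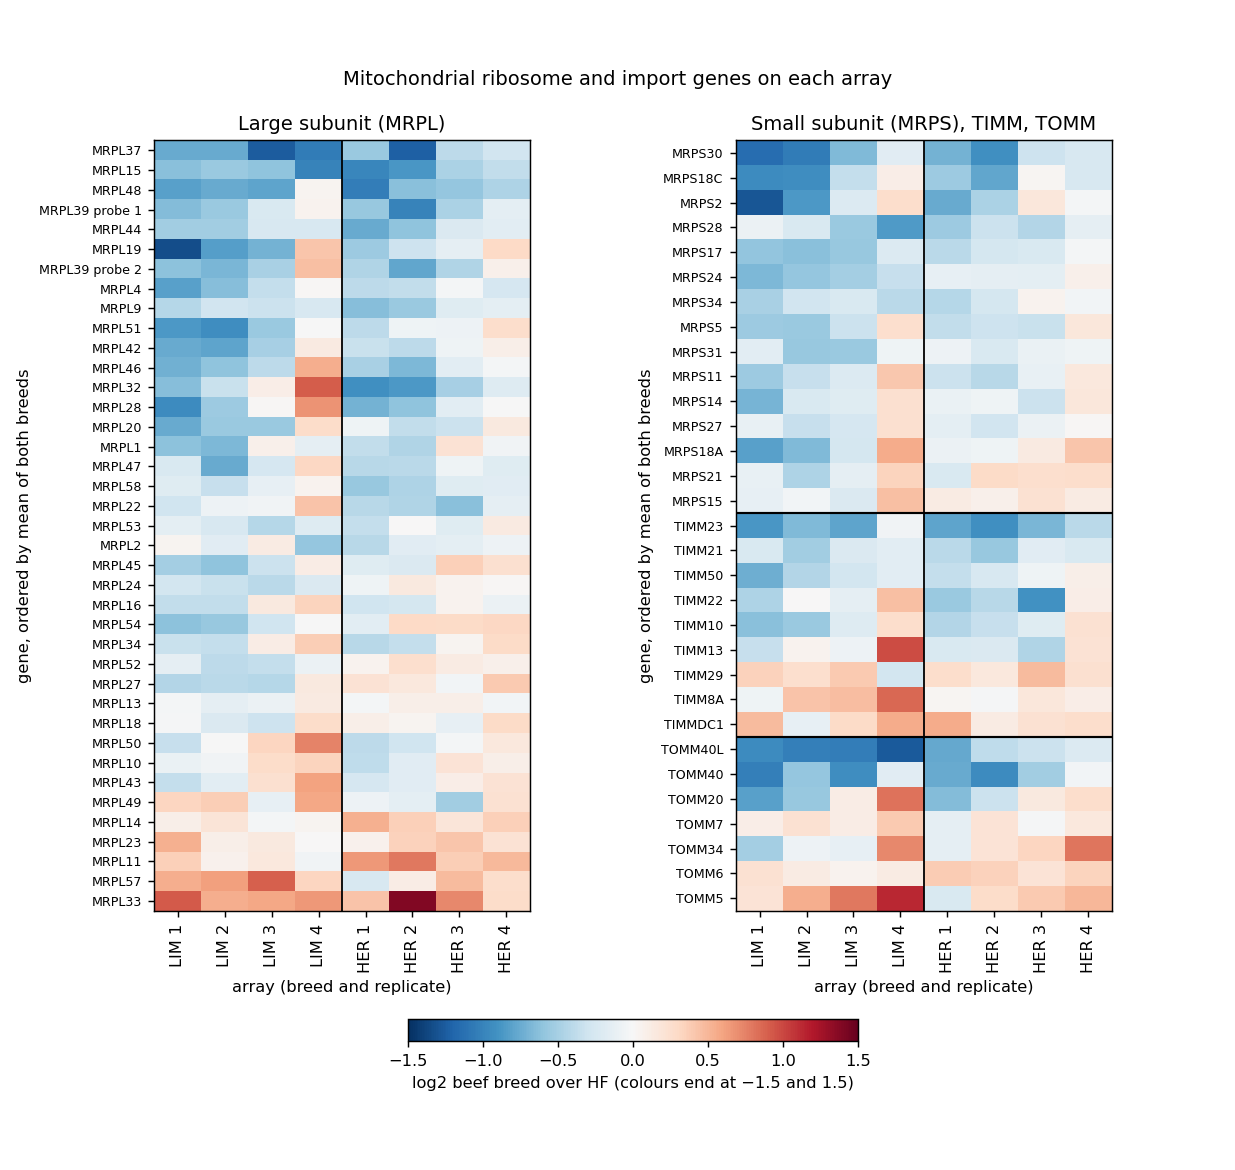
Log2 ratio of beef breed over HF for each of the 70 probes (rows, ordered within each family by the mean of both breeds) on each of the 8 arrays (columns), with blue for less and red for more signal in the beef culture. Blue prevails on the LIM arrays 1 to 3 and the HER arrays 1 and 2. Of 70 probes, 58, 57, and 50 were below 0 on the LIM arrays 1 to 3. On the HER arrays 1 to 3 it was 58, 50, and 42. Blue thins out on LIM array 4 and HER array 4, where 24 and 28 probes were below 0.

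The median of the 70 probes differed between arrays. On the LIM arrays 1 to 4, the median of the 70 probes was -0.45, -0.38, -0.23, and 0.14. On the HER arrays 1 to 4, it was -0.36, -0.27, -0.07, and 0.09. Array 4 of each breed was the sole array of its breed with a median above 0, while the median of all tested probes, which the dye normalization keeps near 0, lay between -0.07 and 0.02 on every array. The calls rested on single arrays to a large extent. Leaving out LIM array 4 raised the count called lower in LIM from 15 to 26 (37.1%, against 22.1% of all tested probes under that setting). Leaving out LIM array 1, 2, or 3 brought it to 6, 5, or 5 (8.57%, 7.14%, and 7.14%, against 14.9% and 13.7% of all tested probes without array 1 or 2 and 2110 of 17622 without array 3), with no probe called higher in LIM without LIM array 3. The share of members called lower in LIM thus lay above that of the whole array in the first case and below it in the others. The count called lower in HER was 15 without LIM array 4, 4 without LIM array 2 or 3, 0 without HER array 1 or 2, and 2 without HER array 3. Over all tested probes, 19.9% were lower in HER without LIM array 4, against 21.4% of the members. Without LIM array 2 or 3 the shares were 12.2% and 11.6%, against 5.71% of the members in each case. They were 5.10%, 5.11%, and 8.94% without HER array 1, 2, or 3, against 0%, 0%, and 2.86%. The count called higher in HER was 0 without HER array 1 or 2, 1 without HER array 3, and 2 without LIM array 3 or HER array 4. Over all tested probes, 3.85%, 3.55%, and 6.2% were higher in HER without HER array 1, 2, or 3. Without LIM array 3 or HER array 4 it was 8.97% and 8.98%. At an unadjusted p of at most 0.05 in limma, 10 probes were lower and 5 higher in HER without HER array 1, and 6 lower and 4 higher without HER array 2. The shares of all tested probes at that unadjusted cut are not given here. In the mean of both breeds, 34 probes (48.6%, against 30.1% of all tested probes) were lower without LIM array 4. With array 4 of both breeds left out, 28 probes were lower in LIM, 16 in HER, and 36 in the mean. These were 40.0%, 22.9%, and 51.4%, against 21.5%, 18.3%, and 29.4% of all tested probes. Higher were 2, 2, and 5 (2.86%, 2.86%, and 7.14%, against 18.7%, 13.5%, and 23.3%). This setting was chosen after the data were seen and drops the arrays whose member median was above 0. The choice itself favors more members called lower, so these shares are not read as a result. No test was made of these shares.

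A list of 11 probes of genes of dividing cells (cyclins, replication factors, and mitotic kinases) differed between the arrays as well. Its median was -1.44, -0.86, -0.73, and 0.33 on the LIM arrays 1 to 4, and -0.50, -1.10, -0.85, and -0.23 on the HER arrays 1 to 4. In each breed array 4 had the highest value for this list as well. All 11 had a mean below 0 in both breeds, and all were well above background in all 16 channels. Of them, 4 were called lower in LIM and 1 in HER, against 19.4% and 14.7% of all tested probes. The part of cell division in the ratios of mitochondrial genes was not tested.

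**Figure D2:**
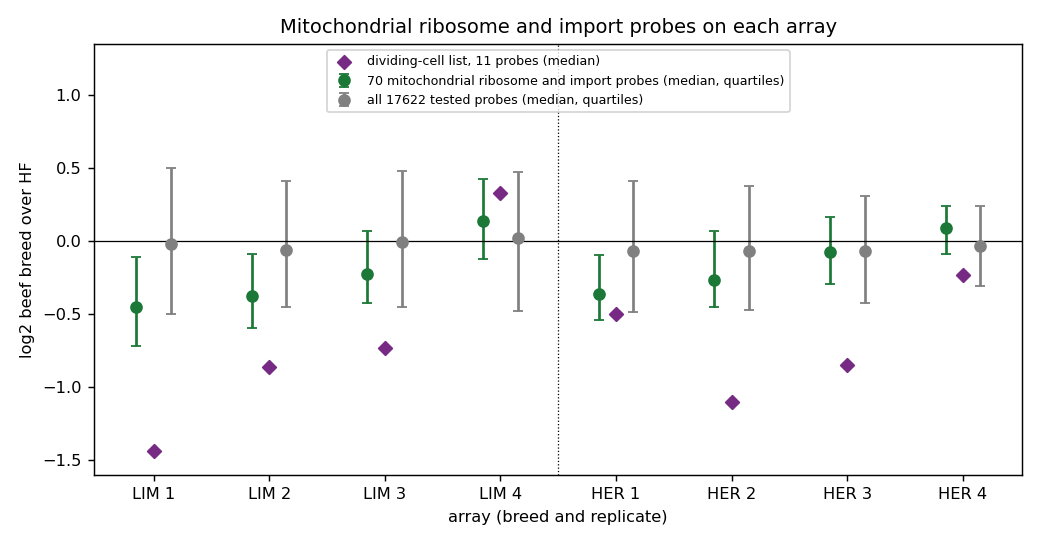
Median and quartiles of the log2 ratio over HF on each array for the 70 mitochondrial ribosome and import probes (green) and for all 17622 tested probes (grey), with the median of 11 probes of dividing-cell genes (purple diamonds). The green medians run from -0.45 on LIM array 1 to 0.14 on LIM array 4 and from -0.36 on HER array 1 to 0.09 on HER array 4, and the grey medians, kept near 0 by the dye normalization, stay between -0.07 and 0.02.

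Within the large subunit, MRPL37, MRPL15, and MRPL48 were lower than in HF in both beef breeds. MRPL37, a protein found in mitochondrial but not bacterial ribosomes, read -0.76, -0.76, -1.25, and -1.05 on the LIM arrays 1 to 4, and -0.56, -1.23, -0.40, and -0.28 on the HER arrays. All 8 values were below 0, and the LIM mean of -0.95 ± 0.24 (SD, n = 4) corresponds to a 1.94-fold lower signal (limma adjusted p = 0.0037). The HER mean was -0.62 ± 0.42 (SD, n = 4; limma adjusted p = 0.031). MRPL15, a counterpart of a bacterial ribosomal protein, read -0.63, -0.56, -0.61, and -1.004 on the LIM arrays and -0.98, -0.87, -0.48, and -0.37 on the HER arrays. All 8 were again below 0, with means of -0.70 ± 0.20 in LIM and -0.67 ± 0.30 in HER (SD, n = 4; limma adjusted p = 0.0057 and 0.012). LIM array 4, on which most of the set read high, gave the lowest MRPL15 value among the LIM arrays.

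MRPL48 behaved differently on that array. It read -0.81, -0.76, -0.79, and 0.04 on the LIM arrays, and -1.04, -0.63, -0.58, and -0.46 on the HER arrays. The LIM arrays 1 to 3 lay close together, and LIM array 4 stood alone at about 0, giving means of -0.58 ± 0.41 in LIM and -0.68 ± 0.25 in HER (SD, n = 4; limma adjusted p = 0.028 and 0.023). Without LIM array 4 the LIM mean was -0.79, whereas without LIM array 1, 2, or 3 the LIM call was lost.

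Further large subunit genes were called lower in 1 breed only, which does not show that the breeds differ. In LIM these were MRPL4 at -0.45 ± 0.36, MRPL51 at -0.59 ± 0.42, and MRPL24 at -0.31 ± 0.08 (SD, n = 4; limma adjusted p = 0.042, 0.028, and 0.032). MRPL24 was the steadiest of them, with -0.28, -0.33, -0.41, and -0.21 on the LIM arrays and -0.07, 0.15, 0.05, and 0.02 on the HER arrays. Its LIM and HER values did not overlap, but the difference of -0.34 (95% interval -0.64 to -0.05) had a limma adjusted p of 0.27. In HER, MRPL44 at -0.44 ± 0.29, MRPL9 at -0.38 ± 0.25, and 1 of the MRPL39 probes at -0.55 ± 0.35 were called lower (SD, n = 4; limma adjusted p = 0.042, 0.044, and 0.043). MRPL44 and MRPL9 were below 0 on all 4 LIM arrays too, with LIM means of -0.38 ± 0.16 and -0.32 ± 0.08 (SD, n = 4; limma adjusted p = 0.051 and 0.063). The other MRPL39 probe had the same sign, with means of -0.33 and -0.40, and was not called. In the mean of both breeds, MRPL42 at -0.33 and MRPL58 at -0.25 were called lower as well (limma adjusted p = 0.049 and 0.034). MRPL58 releases peptides from stalled ribosomes.

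A few large subunit genes ran the other way. MRPL33, a small protein with a bacterial counterpart, was the highest of all 70 probes and the only one called higher in both breeds. It read 0.92, 0.54, 0.58, and 0.65 on the LIM arrays and 0.43, 1.39, 0.72, and 0.28 on the HER arrays. No value was below 0, and the means were 0.67 ± 0.17 in LIM, a 1.60-fold higher signal, and 0.70 ± 0.49 in HER (SD, n = 4; limma adjusted p = 0.020 and 0.024). The HER call was lost without HER array 1, 2, or 3, where the mean was 0.80, 0.47, or 0.70.

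MRPL11, part of the stalk base where translation factors bind, read 0.65, 0.79, 0.37, and 0.48 on the HER arrays and 0.36, 0.06, 0.15, and -0.05 on the LIM arrays. The lowest HER value was just above the highest LIM value, with means of 0.57 ± 0.19 and 0.13 ± 0.17 (SD, n = 4; limma adjusted p = 0.011 in HER and 0.40 in LIM). The difference between the breeds was -0.44 (95% interval -0.81 to -0.07) and missed the threshold at a limma adjusted p of 0.25. MRPL14 was also called higher in HER, at 0.35 ± 0.15 against 0.07 ± 0.09 in LIM, and MRPL57 in LIM, at 0.59 ± 0.24 against 0.15 ± 0.31 in HER (SD, n = 4; limma adjusted p = 0.034 for MRPL14 in HER and 0.014 for MRPL57 in LIM). In all, 6 of 39 MRPL probes were lower and 2 higher in LIM, 6 lower and 3 higher in HER, and 9 lower and 4 higher in the mean of both breeds. Over all tested probes, 19.4% were lower and 16.6% higher in LIM, 14.7% and 10.7% in HER, and 26.2% and 21.4% in the mean. The remaining large subunit genes lay between -0.61 (MRPL19) and 0.29 (MRPL49) in LIM and between -0.62 (MRPL32) and 0.26 (MRPL23) in HER, with none called in either.

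Of the MRPL probes, MRPL19, MRPL28, and MRPL32 varied most within LIM. MRPL19 read -1.32, -0.82, -0.71, and 0.42, MRPL28 read -0.94, -0.55, 0.02, and 0.67, and MRPL32 read -0.64, -0.33, 0.10, and 0.91 on the LIM arrays 1 to 4. Each had its highest value on LIM array 4, and their SDs of 0.74, 0.70, and 0.67 compare with a median SD of 0.32 over the 70 probes in LIM and 0.24 in HER.

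**Figure D3:**
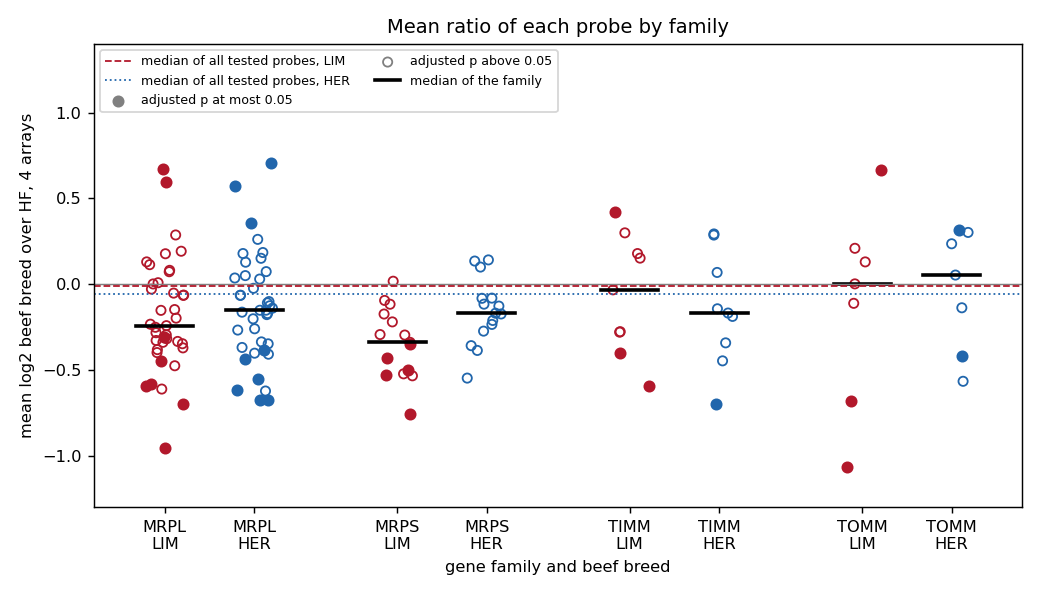
Mean log2 ratio over HF of each probe (4 arrays per breed), by gene family and breed, with filled points for a limma adjusted p of at most 0.05, black bars for the family median, and colored lines for the median of all tested probes. The MRPS bars lie lowest, at -0.34 in LIM and -0.17 in HER, and the TOMM bars lie at 0.00 and 0.05.

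The small subunit family was the most uniform in the direction of its means. Of 15 MRPS probes, 14 had a mean below 0 in LIM and 12 in HER, and the medians were -0.34 and -0.17. On array 4 of each breed the family median was above 0, at 0.24 in LIM and 0.01 in HER. In LIM 5 were called lower and 0 higher, in HER 0 either way, and in the mean of both breeds 6 lower and 0 higher. The shares of all tested probes were 19.4% lower and 16.6% higher in LIM, 14.7% and 10.7% in HER, and 26.2% and 21.4% in the mean. MRPS30, which despite its name belongs to the large subunit, read -1.14, -1.05, -0.66, and -0.17 on the LIM arrays and -0.71, -0.92, -0.32, and -0.24 on the HER arrays. Every value was below 0, with means of -0.76 ± 0.44 and -0.55 ± 0.33 (SD, n = 4; limma adjusted p = 0.015 in LIM and 0.061 in HER), and the mean of both breeds was called lower at -0.65 (limma adjusted p = 0.0043). Without LIM array 1 or 2 the LIM call was lost.

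MRPS24, on the messenger RNA path of the small subunit, was lower in LIM on every array. It read -0.67, -0.58, -0.51, and -0.35 on the LIM arrays, against -0.12, -0.13, -0.14, and 0.07 on the HER arrays. The LIM and HER values did not overlap, and the LIM mean was -0.53 ± 0.14 (SD, n = 4; limma adjusted p = 0.0049) and the HER mean -0.08 ± 0.10 (limma adjusted p = 0.57). The difference was -0.45 (95% interval -0.77 to -0.13; limma adjusted p = 0.20).

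MRPS17 read -0.60, -0.63, -0.56, and -0.20 on the LIM arrays, and MRPS28 read -0.08, -0.23, -0.56, and -0.85. Both were below 0 throughout, but MRPS28 was lowest on LIM array 4, where MRPS17 was highest. Their LIM means were -0.50 ± 0.20 and -0.43 ± 0.34, and MRPS34 had -0.35 ± 0.12 (SD, n = 4; limma adjusted p = 0.011, 0.045, and 0.041). In HER, the means of MRPS17, MRPS28, and MRPS34 were -0.23, -0.36, and -0.17, with none called. MRPS18C was called in the mean of both breeds alone, at -0.46 (limma adjusted p = 0.029). At the upper end, MRPS15 had means of 0.02 in LIM and 0.14 in HER.

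Of the import genes, TIMM23, the channel of the inner membrane complex that takes up proteins with a cleavable presequence, was lower in both breeds. It read -0.88, -0.66, -0.79, and -0.05 on the LIM arrays and -0.79, -0.92, -0.68, and -0.40 on the HER arrays. Array 4 was nearest to 0 in each breed, and the means were -0.59 ± 0.38 in LIM and -0.70 ± 0.22 in HER, a 1.62-fold lower signal (SD, n = 4; limma adjusted p = 0.019 and 0.016). Partners of TIMM23 had smaller values of the same sign. TIMM50, the receptor of that complex, was called lower in LIM at -0.40 ± 0.25 and stood at -0.14 ± 0.20 in HER (SD, n = 4; limma adjusted p = 0.0395 and 0.43). TIMM21, which links the complex to the outer membrane and the respiratory chain, was called in the mean of both breeds alone at -0.31 (limma adjusted p = 0.012), with all 8 arrays below 0.

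Among the TIMM genes of the import pathway for membrane carriers, none was called lower. TIMM22, its channel, had means of -0.03 ± 0.38 in LIM and -0.45 ± 0.42 in HER, and TIMM10 and TIMM13, chaperones of the space between the membranes, had LIM means of -0.28 and 0.15 and HER means of -0.19 and -0.17. TIMM29, a partner of TIMM22, had means of 0.18 and 0.29. TIMM8A, another such chaperone, was called higher in LIM with values of -0.06, 0.42, 0.47, and 0.87 (mean 0.42 ± 0.38, SD, n = 4; limma adjusted p = 0.0498), and in HER it read 0.03, -0.02, 0.17, and 0.10. The call sat at the threshold and was lost without any of 7 arrays, all but LIM array 1. TIMMDC1 had means of 0.30 and 0.29 and was called higher in the mean of both breeds alone (limma adjusted p = 0.033). Of 9 TIMM probes, 2 were lower and 1 higher in LIM, 1 lower and 0 higher in HER, and 3 lower and 1 higher in the mean. The shares of all tested probes beside these counts are those given with the MRPL and MRPS counts.

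In the outer membrane complex the pore and its small subunits went in different directions. TOMM40L, a close relative of the pore protein, read -0.95, -1.02, -1.03, and -1.26 on the LIM arrays and -0.77, -0.38, -0.32, and -0.20 on the HER arrays. The LIM mean of -1.06 ± 0.13, a 2.09-fold lower signal, was the lowest of all 70 probes in either breed (SD, n = 4; limma adjusted p = 0.00082), and the HER mean was -0.42 ± 0.24 (limma adjusted p = 0.035). The LIM and HER values did not overlap, and the difference of -0.65 (95% interval -1.03 to -0.26) had a limma adjusted p of 0.16. TOMM40, the pore itself, read -1.03, -0.58, -0.94, and -0.17 on the LIM arrays and -0.76, -0.94, -0.52, and -0.04 on the HER arrays. Its means were -0.68 ± 0.39 and -0.57 ± 0.39 (SD, n = 4; limma adjusted p = 0.022 in LIM and 0.055 in HER), with array 4 again nearest to 0 in each breed.

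The small TOM subunits had means above 0. TOMM5 read 0.20, 0.55, 0.79, and 1.13 on the LIM arrays, with a mean of 0.67 ± 0.39, and -0.23, 0.27, 0.39, and 0.50 on the HER arrays, with a mean of 0.24 ± 0.32 (SD, n = 4; limma adjusted p = 0.018 in LIM and 0.34 in HER). TOMM6 read 0.38, 0.35, 0.21, and 0.34 on the HER arrays and 0.23, 0.12, 0.05, and 0.13 on the LIM arrays, with means of 0.32 ± 0.08 and 0.13 ± 0.07 (SD, n = 4; limma adjusted p = 0.036 in HER and 0.29 in LIM). TOMM7 had means of 0.21 and 0.05 and was not called. TOMM20, a receptor for presequences, split by array, with -0.81, -0.56, 0.11, and 0.82 on the LIM arrays and -0.65, -0.32, 0.15, and 0.27 on the HER arrays. TOMM34 had means of 0.00 in LIM and 0.30 in HER. Of the 7 TOMM probes, 2 were lower and 1 higher in LIM, 1 lower and 1 higher in HER, and 2 lower and 2 higher in the mean of both breeds. These counts, too, stand beside the shares of all tested probes given with the MRPL and MRPS counts.

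**Figure D4:**
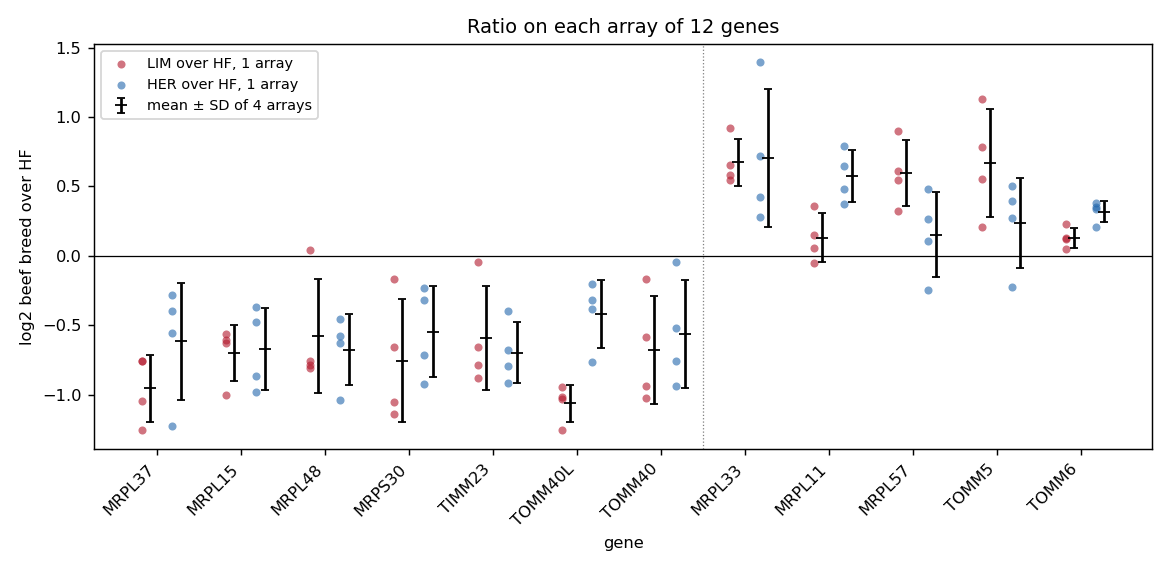
Log2 ratio over HF on each array for 12 genes, in red for LIM and blue for HER, with the mean and SD of 4 arrays beside the points. The 7 genes at the left lie below 0 on every array but 1, MRPL48 on LIM array 4 at 0.04, and MRPL33 and TOMM6 at the right lie above 0 on all 8 arrays.

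The calls that held best were few. Of the 19 LIM calls, 4 (MRPL15, MRPL37, MRPS24, and TOMM40L) stayed past the threshold when any of the 8 arrays was left out, and of the 12 HER calls, 0 did, all of them being lost without HER array 1 and again without HER array 2. The LIM call was lost for MRPL57, MRPS17, and TOMM5 without LIM array 3, for MRPL33 without LIM array 1 or 3, for MRPS30 without LIM array 1 or 2, and for MRPL48, MRPL51, TIMM23, and TOMM40 without LIM array 1, 2, or 3. The 6 other LIM calls (MRPL4, MRPL24, MRPS28, MRPS34, TIMM50, and TIMM8A) were each lost without any of 5 to 7 arrays. Of the 27 calls in the mean of both breeds, 18 stayed past the threshold when any of the 8 arrays was left out. The sign of every called value was kept without any 1 array. The fit took the 8 arrays as independent, although the same HF bulls served both comparisons. The adjusted p of the mean may therefore be too small, and leaving out 1 array does not address this.

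No gene of the set was called for a difference between LIM and HER, where 0.233% of all tested probes were. At an unadjusted p of at most 0.05 in limma, 7 of the 70 probes passed, namely TOMM40L, MRPS24, MRPL54, MRPL11, MRPL24, MRPL52, and MRPL27, all with the lower ratio in LIM. The share of all tested probes at this unadjusted cut is not given here, and the 0.233% belongs to the adjusted cut. The 7 are therefore not read as a trait of the set. MRPL52 had all 4 LIM values below 0 (-0.13, -0.39, -0.36, and -0.09) and all 4 HER values above 0 (0.05, 0.26, 0.13, and 0.08). Its difference of -0.37 (95% interval -0.69 to -0.05) had a limma adjusted p of 0.27. In each of these differences breed cannot be told apart from slide or dye.

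Other genes of the same pathways were read from lists. Their counts stand beside shares over all tested probes of 19.4% lower and 16.6% higher in LIM, and 14.7% and 10.7% in HER. A list of mitoribosome proteins with symbols outside the MRPL and MRPS families lay on the same side. All 5 probes had means below 0 in both breeds, with medians of -0.53 in LIM and -0.24 in HER. The list includes NDUFAB1, which carries an NDUF symbol as subunits of respiratory complex I do. CHCHD1 had a LIM mean of -0.80 ± 1.16 (SD, n = 4), with -2.52 on LIM array 4, and was not called. AURKAIP1, a small subunit protein, at -0.65 ± 0.28 and GADD45GIP1, a large subunit protein, at -0.53 ± 0.24 were called lower in LIM (SD, n = 4; limma adjusted p = 0.0086 and 0.015), and 0 of the 5 were called in HER. Of 10 probes of import proteins with other symbols, 1 was called lower in each breed, AGK of the carrier import complex, at -0.64 ± 0.28 in LIM and -0.54 ± 0.29 in HER (SD, n = 4; limma adjusted p = 0.011 and 0.031). The other AGK probe read 0.10 and -0.02 and was not called, so the AGK probes disagree. Both were dim, with mean log2 intensities of 6.44 for the called probe and 6.90 for the other.

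The factors that build or serve the mitoribosome were split. Of 15 probes of assembly factors, 2 were higher and 3 lower in LIM, and 2 higher and 0 lower in HER. Among all tested probes, 16.6% were higher and 19.4% lower in LIM, and 10.7% and 14.7% in HER. The counts of the lists in this paragraph are not read as a result beyond those shares. NGRN, an assembly factor of the large subunit, stood at 0.68 ± 0.34 in LIM and 0.87 ± 0.33 in HER (SD, n = 4; limma adjusted p = 0.014 and 0.0099). DDX28, an RNA helicase of large subunit assembly, was lower in LIM at -0.56 ± 0.23, as was FASTKD2 at -0.49 ± 0.22 (SD, n = 4; limma adjusted p = 0.010 and 0.016). GTPBP10 had a pair of probes that disagree, 1 called higher in both breeds at 0.73 and 0.61 and 1 at -0.32 and -0.29 that was called in neither breed but was called lower in the mean of both (limma adjusted p = 0.031). The probe called higher was the dimmer, with a mean log2 intensity of 7.05 against 9.41. Of 6 probes of translation factors, 1 was lower in LIM (TSFM, -0.39 ± 0.27) and 0 were called in HER. Of 11 probes of mitochondrial tRNA ligases, 1 was higher and 1 lower in LIM and 2 higher and 0 lower in HER. HARS2, which charges histidine tRNA, was higher in both at 0.60 ± 0.44 and 0.74 ± 0.18 (SD, n = 4; limma adjusted p = 0.022 and 0.016).

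Among 11 probes of regulators of mitochondrial DNA expression and biogenesis, NRF1, a transcription factor of nuclear genes for mitochondrial proteins, was called lower in both breeds. It stood at -0.67 ± 0.30 in LIM and -0.90 ± 0.17 in HER (SD, n = 4; limma adjusted p = 0.0062 and 0.0047). The NRF1 probe was dim, with a mean log2 intensity of 6.74 against 7.30 for TIMM29, the dimmest member probe, though well above background in all 16 channels. POLG2, a subunit of the mitochondrial DNA polymerase, was called higher in LIM at 0.51 ± 0.34 (SD, n = 4; limma adjusted p = 0.047). PPARGC1A, a coactivator of mitochondrial biogenesis, had a pair of probes with means between 0.04 and 0.74 and SDs from 1.15 to 1.85, and neither was called. For comparison, 67 probes of respiratory chain subunits had medians of 0.00 and 0.05, with 13 higher and 10 lower in LIM and 12 higher and 9 lower in HER. The 61 probes of cytosolic ribosomal proteins had medians of 0.25 and 0.16, with 23 higher and 0 lower in LIM and 11 higher and 1 lower in HER. For all tested probes the shares were 16.6% higher and 19.4% lower in LIM, and 10.7% and 14.7% in HER. No test was made between these lists.

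**Figure D5:**
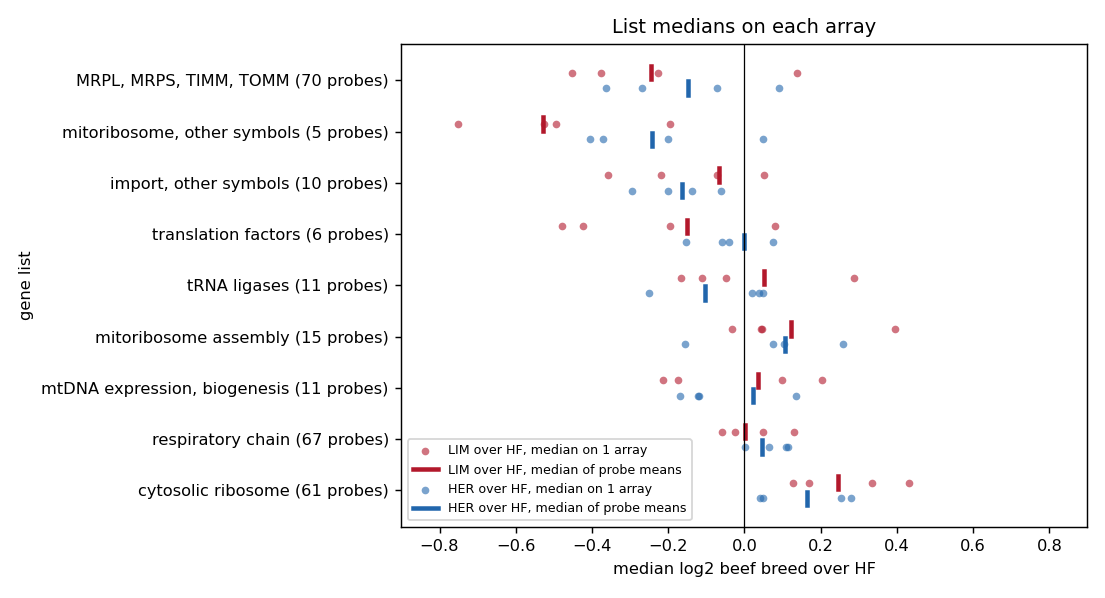
Median log2 ratio over HF of each gene list on each array (points) and of the probe means (bars), in red for LIM and blue for HER. The MRPL, MRPS, TIMM, and TOMM probes, drawn together as a single list, and the mitoribosome proteins with other symbols lie mainly left of 0. The respiratory chain lies about 0 with bars at 0.00 and 0.05, and the cytosolic ribosome lies right of 0 on all 8 arrays.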

How the data were processed

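Values came from 8 dual-channel Agilent arrays, 4 of LIM and 4 of HER muscle cell cultures, each against an HF culture. Per the file headers, the authors extracted them with Agilent Feature Extraction 10.7.3.1. The deposited files hold a log10 ratio of red over green per spot, made after the software's background subtraction and dye normalization, the median intensity of each spot and its local background, and marks for outliers and for signal well above background (score of 0 or 1). The log10 ratio in the deposited series table was the same.

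Here the log10 ratio was turned to log2 beef breed over HF, with the sign turned where the beef breed carried Cy3. Control spots and outlying spots were dropped, and spots of 1 probe averaged (21465 probes spotted 2 times, 10 spotted 6 times). Of 21475 probes, 17622 were tested, each with at least 4 of 16 channels well above background (at least 0.5 of its spots). All 8 arrays were fitted together in limma 3.58.1 (R 4.3.3; lmFit, eBayes), with 1 mean per comparison, and calls used a Benjamini-Hochberg adjusted p of at most 0.05 over all tested probes. HF bulls shared by both comparisons were not modelled, since which HF culture lay on which array is not known. The deposited ratio was used because local backgrounds on HER array 3 reached 775167 in red, where 130 spots were outliers. Per array, 68.8% to 85.2% of probes were detected in the beef channel and 73.8% to 78.0% in the HF channel, no spot was saturated, and precision is limited by the number of arrays. As deposited, before the sign was turned, LIM and HER arrays had correlations from -0.75 to -0.08 over tested probes, with dyes reversed between them.

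Probes were named by RefSeq accession (7793 of 20693 accessions matched a table on assembly ARS-UCD2.0), 13178 probes had no name, and coordinates were left out because the array was designed on build HGSC Btau_3.1. The members and lists were chosen with earlier results of these data known. By rule, genes were named where both comparisons passed the threshold with 1 sign on all 8 arrays, where they were the highest or lowest of their family, and, of lists, the 2 highest and 2 lowest called. This gave MRPL37, TOMM40L, MRPL15, TIMM23, MRPL33, MRPS30, MRPS15, TIMMDC1, and TOMM5. No gene qualified by probes of opposite sign or by LIM minus HER. Other genes were named after their values were seen, and each was followed through the same alternatives (background correction, normalization, filters, array weights, tests, a replicate block, and 1 array omitted at a time). The fit was tested on simulated data with noise drawn independently for each probe and array. Such data do not cover shared HF bulls or a shift of many probes on a single array.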

Additional observations from a re-analysis of the deposited data

Results flagged for a closer look

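Over 168 groups of 4 arrays (member probes, named list genes, and the median of the set, in each breed), 11 held 1 array that stood apart from the other 3 beyond the 95% critical value of Dixon's test. Chance gives this in about 1 group in 20. LIM array 4 stood apart for MRPL15 (-1.004), MRPL48 (0.0383), MRPL39 (0.45, its second probe), MRPS17 (-0.20), and MRPL27 (0.14), where it was the lowest value for MRPL15 and the highest for the others. HER array 4 stood apart as the highest for MRPS24 (0.0731) and MRPS5 (0.17), and HER array 1 as the lowest for MRPL54 (-0.15) and MRPS21 (-0.22). Of the list genes, RARS2, a mitochondrial tRNA ligase, read 0.0286 on HER array 3, and the higher GTPBP10 probe read 1.12 on LIM array 3. The arrays' own medians of the 70 probes did not meet this measure in either breed.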

How the results depend on the processing

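The reported counts were 15 lower and 4 higher in LIM, 8 lower and 4 higher in HER, 20 lower and 7 higher in the mean of both breeds, and 0 for LIM minus HER. Leaving out 1 array at a time gave 5 to 26 lower and 0 to 4 higher in LIM, 0 to 15 lower and 0 to 5 higher in HER, 14 to 34 lower and 5 to 8 higher in the mean, and 0 throughout for LIM minus HER, with medians from -0.34 to -0.18 in LIM and from -0.24 to -0.10 in HER. Normexp with measured local backgrounds and loess left 0 HER calls in limma in either direction (11 lower and 6 higher before adjustment, at p of 0.05 or below) and 0 over the whole table, whereas with outlying backgrounds replaced 10 were lower and 4 higher. That version and loess without background correction each gave 11 higher in the mean (15.7%, against 23.2% and 23.8% of all tested probes). Scaling between arrays gave 15 lower in HER (21.4%, against 20.6% of all tested probes). Array weights, with 0.30 for LIM array 4, gave 32 lower in LIM, 14 in HER, and 32 in the mean (45.7% in LIM and in the mean, against 25.2% and 31.3% of all tested probes, of which 20.4% were lower in HER). Limma with p unadjusted (0.05) and a 1.3-fold minimum gave 13 lower and 2 higher in HER, 11 lower and 2 higher in the mean, and 5 for LIM minus HER. The methods' t-test at the same limits gave 8 lower in LIM and 1 higher in HER, and after Benjamini-Hochberg adjustment 1 lower (TOMM40L) and 0 higher in LIM and 0 either way in HER. The replicate number as a block gave 2 higher and 9 lower in HER, 18 lower and 3 higher in LIM, and 29 lower and 6 higher in the mean (41.4% lower, against 26.5% of all tested probes). Under it the HER calls of MRPL37, MRPL9, MRPL14, TOMM40L, and TOMM6 (limma adjusted p from 0.057 to 0.073) and the LIM calls of MRPL24, MRPS28, MRPS34, and TIMM8A (from 0.050 to 0.087) were not made. The numbers were not taken as pairs, since deviations of same-numbered arrays correlated at -0.24, 0.13, 0.30, and 0.54, and not every array correlated best with its own number. Chosen after seeing the data, centring on tested probes gave 4 lower in HER, and leaving out array 4 of both breeds gave 28 lower and 2 higher in LIM, 16 lower and 2 higher in HER, and 36 lower in the mean. The causes were not tested. No called value changed sign under any of these settings, and the medians stayed below 0 wherever computed, the HER median shrinking from -0.15 to between -0.09 and -0.08 under the 3 versions with loess and to -0.09 when centred on tested probes.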
